A study of Homo sapiens with 4 samples.

Results

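The 9 genes described here are 7 metallothioneins (MT2A, MT1A, MT1E, MT1F, MT1G, MT1M and MT1X), the metal-sensing transcription factor MTF1 and the zinc exporter SLC30A1, out of 57820 genes in the deposited expression table. They were chosen by name, with their values in the CEBPB knockdown comparison already known, so those values are given as a description, no p-value is given for them, and nothing is read from calls among them. The cells were A549, a long-established line from a human lung adenocarcinoma in which, per the series title, NRF2 is activated. One library came from cells transfected with CEBPB siRNA-1, another from cells transfected with CEBPB siRNA-2, and 2 libraries from cells transfected with control siRNA. All were cultured in the same serum-supplemented medium, which was replaced 24 h after transfection, and were harvested another 24 h later. The knockdown is transient, in 1 cell line, and each siRNA is represented by 1 library, so the spread between the knockdown libraries includes any difference between the siRNAs. Nothing in the labels says whether the controls came from separate cultures.

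Metallothioneins are small proteins rich in cysteine that bind zinc, copper and cadmium, and they buffer the free zinc of the cell. Their genes lie side by side in a cluster on chromosome 16. When zinc rises, MTF1 binds it through its zinc fingers, enters the nucleus and activates genes that carry metal response elements, among them the metallothioneins and SLC30A1. MT2A is also known to respond to glucocorticoids and inflammatory cytokines. CEBPB encodes a basic leucine zipper transcription factor of the C/EBP family.

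The table's per-library values were taken as FPKM, that is, fragments divided by transcript length in kilobases and by the library's depth. The libraries summed to between 494066 and 528606 FPKM. CEBPB was at 12.9 FPKM with siRNA-1 and 10.97 FPKM with siRNA-2, against 78.7 and 80.9 FPKM in the controls. Of the epithelial markers, KRT8 was at 1226 and 1467 FPKM with siRNA-1 and siRNA-2, against 1835 and 2517 FPKM in the controls. KRT18 was at 568 and 1351 FPKM in the knockdown libraries, against 1740 and 2502 FPKM in the controls, and is called lower in the authors' deposited table. KRT19 lay above both controls, with 5.32 and 7.38 FPKM in the knockdown libraries, against 2.41 and 3.28 FPKM in the controls. EPCAM lay below both controls, with 1.77 and 1.03 FPKM in the knockdown libraries, against 1.92 and 3.52 FPKM in the controls. CDH1 (22.8 and 14.02 against 20.2 and 32.1 FPKM) overlapped between the groups, and the part of these markers in the values below was not tested. The lung lineage factor NKX2-1 was listed at 0 in all libraries, and SFTPC, a marker of alveolar type 2 cells, at 0 in all but control 1 (0.914 FPKM). Of 16 leukocyte, endothelial, erythroid and fibroblast markers in the table, 13 were below 1 FPKM in every library, the defining PTPRC, CD3E, VWF, CDH5 and HBB at 0. The exceptions were CD68 (16.8 and 4.69 FPKM with siRNA-1 and siRNA-2, against 7.09 and 9.72 FPKM in the controls), ITGAM and COL1A1. The mean normalized count in the authors' deposited table was only 0.754 for CD68, beside 43.6 for ITGAM, so the FPKM of CD68 is uncertain. The summed fibroblast markers, nearly all COL1A1, were at 4.47 and 2.30 FPKM in the knockdown libraries, against 0.717 and 0.573 FPKM in the controls. COL1A1 is called higher in the authors' deposited table (log2 change 1.88), and the part of these markers in the values below was not tested.

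The promoters of MT2A and MT1X, the metallothioneins with the highest levels, and of SLC30A1 are shown because all 3 are known targets of MTF1 and their transcripts differed in how they stood between the groups. Each window runs from 250 bases before the annotated start to 50 bases after it, 5' to 3' on the gene's own strand, from RefSeq on GRCh38.p14. Capitals mark the core of the metal response element, TGCACNC or TGCGCNC, on either strand.
MT2A, chr16:56608334-56608633, plus strand: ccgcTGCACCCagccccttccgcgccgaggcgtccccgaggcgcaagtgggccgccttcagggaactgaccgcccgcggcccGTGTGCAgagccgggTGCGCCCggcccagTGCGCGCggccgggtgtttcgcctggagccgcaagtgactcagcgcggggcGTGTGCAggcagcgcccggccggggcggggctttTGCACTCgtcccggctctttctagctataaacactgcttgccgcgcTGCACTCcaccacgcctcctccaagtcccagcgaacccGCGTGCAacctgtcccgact
MT1X, chr16:56682220-56682519, plus strand: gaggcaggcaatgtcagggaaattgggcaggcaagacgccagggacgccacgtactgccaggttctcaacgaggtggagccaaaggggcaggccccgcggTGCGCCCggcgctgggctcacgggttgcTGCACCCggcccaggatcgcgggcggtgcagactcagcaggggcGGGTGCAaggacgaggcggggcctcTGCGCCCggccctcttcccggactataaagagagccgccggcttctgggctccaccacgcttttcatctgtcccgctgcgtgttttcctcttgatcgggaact
SLC30A1, chr1:211579112-211579411, minus strand: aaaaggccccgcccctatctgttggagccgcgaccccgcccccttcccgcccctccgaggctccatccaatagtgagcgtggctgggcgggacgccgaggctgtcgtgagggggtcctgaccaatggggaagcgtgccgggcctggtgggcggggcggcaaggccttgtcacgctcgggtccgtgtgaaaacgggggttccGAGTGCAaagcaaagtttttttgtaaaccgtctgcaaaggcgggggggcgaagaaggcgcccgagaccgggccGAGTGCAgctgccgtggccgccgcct

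The MT2A window held 8 matches to the metal response element core, 5 on the gene's strand and 3 on the other. The MT1X window held 4 matches and the SLC30A1 window 2. Of 35116 RefSeq promoter windows of the same length, 29.6% held at least 1 match, 0.601% at least 4 and 0.0199% at least 8. The window of MTF1 itself held 0 matches. The match nearest upstream of the TATA box (TATAAA, found in 11.5% of the windows) began at position -54 in MT2A and at -53 in MT1X. The TATA box itself began at -29 in MT2A and at -30 in MT1X. The letters of an antioxidant response element core, TGACNNNGC, stood once each in the MT2A, MT1X and SLC30A1 windows and in 13.3% of all windows. In MT2A they read tgactcagc, and none of the element's matches overlapped those of the metal response element. The letters TTGCNNAA, a C/EBP core searched on both strands, were in none of the 4 windows found and in 10.5% of all windows. A match is a description of letters and not a binding site, and a window without them says nothing of binding elsewhere. Windows for MT1A, MT1E, MT1F, MT1G and MT1M were not used here.

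**Figure D1:**
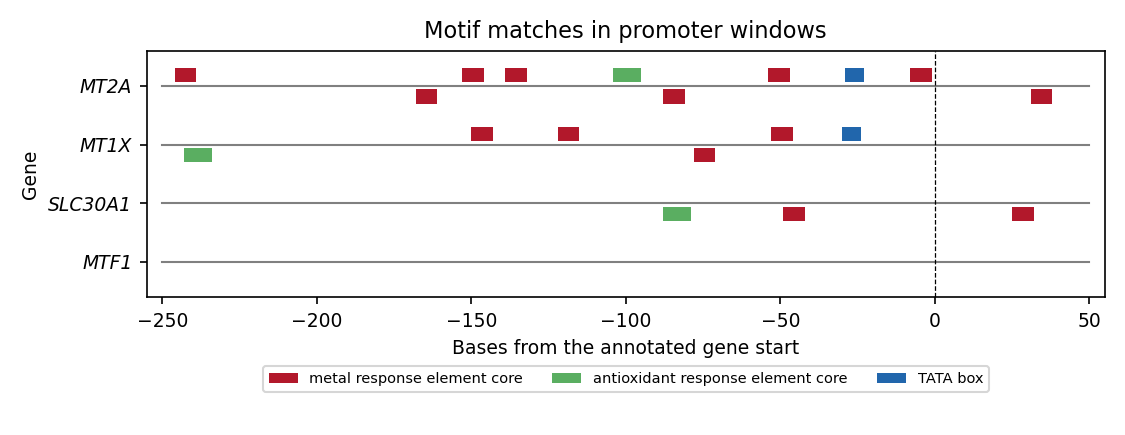
Matches to 3 motif cores in the promoter windows of MT2A, MT1X, SLC30A1 and MTF1, by distance in bases from the annotated gene start (dashed line). Blocks above each line are on the gene's strand and blocks below it on the other; MT2A has 8 metal response element matches, MT1X 4, SLC30A1 2 and MTF1 0.

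MT2A, the main metallothionein of most human tissues, was at 237 FPKM with siRNA-1 and 201 FPKM with siRNA-2, against 30.5 FPKM in control 1 and 33.4 FPKM in control 2. Both knockdown libraries were far above both controls, and the spread within each group was small beside the gap. In RNA from whole cultures, more cells with the transcript and more transcript per cell cannot be told apart. The means were 219 ± 25.2 FPKM in knockdown cells and 31.96 ± 2.01 FPKM in control cells (SD, n = 2 each), a 6.86-fold difference. Against the control mean, siRNA-1 gave a 7.41-fold and siRNA-2 a 6.30-fold difference. MT2A was the gene with rank 244 of 57820 by level in the siRNA-1 library and rank 313 in the siRNA-2 library, against ranks 2807 and 2504 in the controls. Its mean normalized count in the authors' deposited table was 900.2, the highest of the 9 genes.

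MT1X, the metallothionein second in level, was at 22.2 FPKM with siRNA-1 and 28.5 FPKM with siRNA-2, against 12.6 FPKM in control 1 and 9.75 FPKM in control 2. Its groups did not overlap either, and the siRNA-2 library was the highest, the opposite order to MT2A. The means were 25.3 ± 4.45 FPKM in knockdown cells and 11.2 ± 2.03 FPKM in control cells (SD, n = 2 each), a 2.26-fold difference. It rests on fewer reads than MT2A, with a mean normalized count of 58.1 in the authors' deposited table.

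MT1F, a metallothionein 1 isoform, was at 3.76 FPKM with siRNA-1 and 0.734 FPKM with siRNA-2, against 0.485 FPKM in control 1 and 0.548 FPKM in control 2. The siRNA-1 library stood far above the other libraries, while siRNA-2 lay close to the controls. Its mean normalized count in the authors' deposited table was 13.9. MT1A was at 3.35 FPKM with siRNA-1, while with siRNA-2 and in both controls it was listed at 0. For this gene the mean normalized count in the authors' deposited table was 5.46, with a log2 change of 2.096 ± 1.504 (SE). A listed 0 is not always an absence of reads in this table: the pseudogene MT1DP was listed at 0 FPKM in all 4 libraries beside an authors' mean normalized count of 2.0.

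MT1E, MT1G and MT1M were listed at 0 FPKM in all 4 libraries and had a mean normalized count of 0 in the authors' deposited table. The same was so of FPKM for the other 5 coding family members in the table, MT1B, MT1H, MT3, MT4 and MT1HL1. MT3 and MT4 are the members known for restricted expression, MT3 in brain and MT4 in stratified epithelium. Thus 4 of the 7 metallothioneins were above 0 in any library, and only MT2A, MT1X and MT1F in every library.

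**Figure D2:**
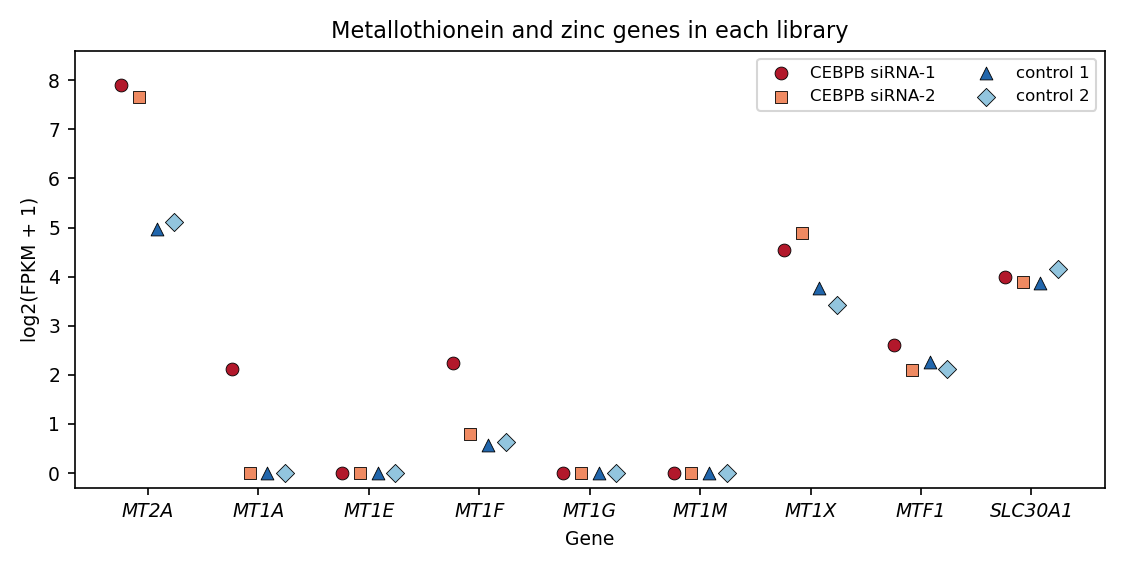
Level of each of the 9 genes as log2(FPKM + 1) in the CEBPB siRNA-1, CEBPB siRNA-2, control 1 and control 2 libraries, 1 point per library. MT2A, MT1X and MT1F have both knockdown libraries above both controls, though MT1F with siRNA-2 lies close to them. MT1A and MT1F stand out with siRNA-1. MT1E, MT1G and MT1M lie at 0, and MTF1 and SLC30A1 overlap between the groups.

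Because metallothionein genes are similar in sequence, their summed level was also followed. The 7 genes together were at 266 FPKM with siRNA-1 and 230.5 FPKM with siRNA-2, against 43.6 FPKM in control 1 and 43.7 FPKM in control 2. The controls were nearly equal in the sum, although they differed in how it was divided between MT2A and MT1X. The means were 248 ± 25.2 FPKM in knockdown cells and 43.7 ± 0.0281 FPKM in control cells (SD, n = 2 each), a 5.69-fold difference. The sum made up 0.0539% and 0.0459% of all FPKM in the knockdown libraries, against 0.00851% and 0.00826% in the controls. Adding the 8 metallothionein pseudogenes in the table changed the fold to 5.66.

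The makeup of the sum differed between the groups as well as its size. MT2A contributed 89.0% with siRNA-1 and 87.3% with siRNA-2, against 69.97% and 76.4% in the controls. MT1X contributed 8.33% and 12.3% in the knockdown libraries, against 28.9% and 22.3% in the controls. The ratio of MT2A to MT1X was 10.7 and 7.07 in the knockdown libraries, against 2.42 and 3.43 in the controls. Without MT2A, the other metallothioneins summed to 29.3 FPKM with siRNA-1 and 29.2 FPKM with siRNA-2, against 13.1 and 10.3 FPKM in the controls. That was 2.50 times the control mean with siRNA-1 and 2.49 times with siRNA-2. The siRNA-1 library held less MT1X and more MT1F and MT1A than the siRNA-2 library, and the 3 together came to nearly the same level in both.

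**Figure D3:**
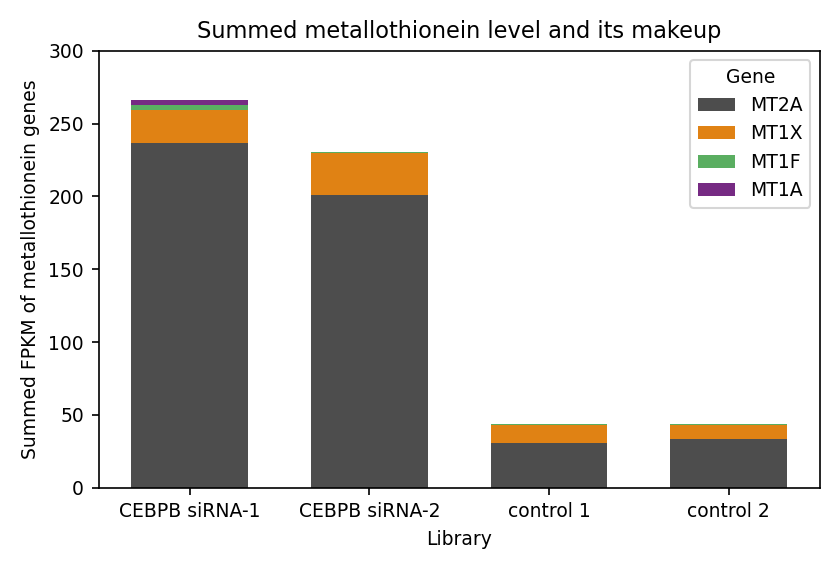
Summed FPKM of the metallothionein genes in each library, stacked by gene from 0. The knockdown libraries reach 266 and 230.5 FPKM against 43.6 and 43.7 FPKM in the controls, with MT2A the larger part in every library.

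How far reads of 1 member could be taken for another was measured on GENCODE 29 transcripts, with every stretch of 76 bases, the read length of the libraries. For MT2A, MT1A, MT1F and MT1M, 0% of such stretches occurred in a transcript of another gene in the table. The share was 1.25% for MT1E and 5.39% for MT1G. For MT1X it was 36.5%, mostly shared with AC026461.1, a non-coding transcript on the same strand that starts in the MT1X gene. That transcript is named RP11-343H19.2 in the deposited table and was listed at 0 in all libraries. How reads in the stretch they share were assigned is not given in the sources used here, so the level of MT1X is less certain than that of MT2A. With up to 2 mismatches allowed, 10.0% of MT2A stretches matched another metallothionein gene or pseudogene, the closest being the pseudogene MT2P1. MT2P1 was at 1.37 and 1.41 FPKM in the knockdown libraries and listed at 0 in both controls.

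MTF1, the transcription factor that senses zinc, was at 5.08 FPKM with siRNA-1 and 3.31 FPKM with siRNA-2, against 3.77 FPKM in control 1 and 3.37 FPKM in control 2. The siRNA-1 library was the highest and the siRNA-2 library the lowest, so the groups overlapped. The means were 4.20 ± 1.25 FPKM in knockdown cells and 3.57 ± 0.279 FPKM in control cells (SD, n = 2 each). SLC30A1, which moves zinc out of the cell across the plasma membrane, was at 14.9 FPKM with siRNA-1 and 13.9 FPKM with siRNA-2, against 13.6 FPKM in control 1 and 16.8 FPKM in control 2. Both knockdown libraries lay between the controls. The means were 14.4 ± 0.752 FPKM in knockdown cells and 15.2 ± 2.26 FPKM in control cells (SD, n = 2 each), a ratio of 0.946. The mean normalized counts behind them in the authors' deposited table were 293 for MTF1 and 776 for SLC30A1. The count of SLC30A1 was close to the 900.2 of MT2A only as a mean over both groups, between which MT2A differed.

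In the control libraries the order of levels in FPKM was MT2A, SLC30A1, MT1X, MTF1 and MT1F, and no neighbours in that order overlapped. In the knockdown libraries it was MT2A, MT1X, SLC30A1, MTF1, MT1F and MT1A. There MT1F overlapped both MTF1 and MT1A. MT1X lay above SLC30A1 in both knockdown libraries and below it in both controls.

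A model across all genes, limma on log2(FPKM + 1), gives the differences on that scale, which shrinks those of low genes, with a standard error. It covered 14068 genes whose mean over the libraries was 1 FPKM or more, and 5 of the 9 genes reached that level. MT1F reached it only through the siRNA-1 library. The log2 change was 2.74 ± 0.17 for MT2A, 1.11 ± 0.22 for MT1X, 0.92 ± 0.50 for MT1F, 0.16 ± 0.25 for MTF1 and -0.07 ± 0.19 for SLC30A1 (SE, n = 2 libraries per group). The authors' deposited table gives 2.75 ± 0.26, 1.37 ± 0.48, 1.27 ± 0.95, 0.24 ± 0.33 and -0.11 ± 0.26 (SE) for the same genes in the same order. Both knockdown libraries were above both controls for 3 of the 5 genes, where 23.5% of all tested genes had that pattern. Only MT2A was called higher at an adjusted p under 0.05 in limma, where 0.0640% of genes were. MT2A was also the only one of the 9 called in the authors' deposited table, where 2.71% of genes with an adjusted p were called higher. Since the genes were chosen with these results known, nothing is read from these counts. The limma call of MT2A was lost without control 1 (log2 change 2.67), without control 2 (log2 change 2.80) or with no filter on low values.

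The siRNAs can also be compared with each other, a contrast other than the one between knockdown and control, although the values of each library were known when the genes were chosen, so these differences are a description too. In a limma fit with 3 groups, the log2 difference of siRNA-1 minus siRNA-2 was 0.23 ± 0.15 for MT2A and -0.35 ± 0.23 for MT1X. It was 0.50 ± 0.24 for MTF1 and 0.10 ± 0.22 for SLC30A1. In limma 0 of these 4 genes passed, where 0.441% of all tested genes did, and 0 had an unadjusted p below 0.05, where 22.4% of all tested genes did. MT1F passed the filter only through its siRNA-1 level, so its difference of 1.46 on the same scale is given without a test. Each siRNA has 1 library, so this fit takes the spread from the controls and assumes that the siRNA libraries vary as they do.

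The metallothionein cluster has expressed neighbours on both sides, and position was not used to choose the genes. Within 500 kb of the outermost metallothionein gene of the cluster, 30 other genes were in the table and 8 of them were tested. In limma 0 of the 8 passed, 0 had an unadjusted p below 0.05, and 0 were called in the authors' deposited table, where over all genes 0.235% were called by limma, 12.2% had such an unadjusted p and 4.14% were called by the authors, in either direction. Their log2 changes ran from -0.25 to 0.61 with a median of 0.10, beside a median of 0.00 over all tested genes. BBS2, a ciliary gene and the nearest expressed neighbour on 1 side, was at 8.72 and 10.7 FPKM in the knockdown libraries, against 7.31 and 8.27 FPKM in the controls. OGFOD1, which encodes a hydroxylase of a ribosomal protein, was at 18.1 and 16.5 FPKM in the knockdown libraries, against 17.9 and 16.5 FPKM in the controls. On the other side NUP93, a nuclear pore gene, was at 43.2 and 39.2 FPKM in the knockdown libraries, against 34.3 and 38.8 FPKM in the controls. HERPUD1, which acts in the degradation of misfolded endoplasmic reticulum proteins, was at 29.2 and 30.5 FPKM in the knockdown libraries, against 33.6 and 37.9 FPKM in the controls. The log2 changes of these 4 genes ran from -0.25 (HERPUD1) to 0.28 (BBS2). NLRC5, with the highest log2 change of the 8 (0.61 ± 0.49), was at 3.18 and 2.02 FPKM in the knockdown libraries, against 2.75 and 0.438 FPKM in the controls. CPNE2 was at 44.2 and 31.5 FPKM in the knockdown libraries, against 27.7 and 28.2 FPKM in the controls. Its log2 change was 0.40 ± 0.21, and 0.64 without the siRNA-2 library, where limma called it higher.

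**Figure D4:**
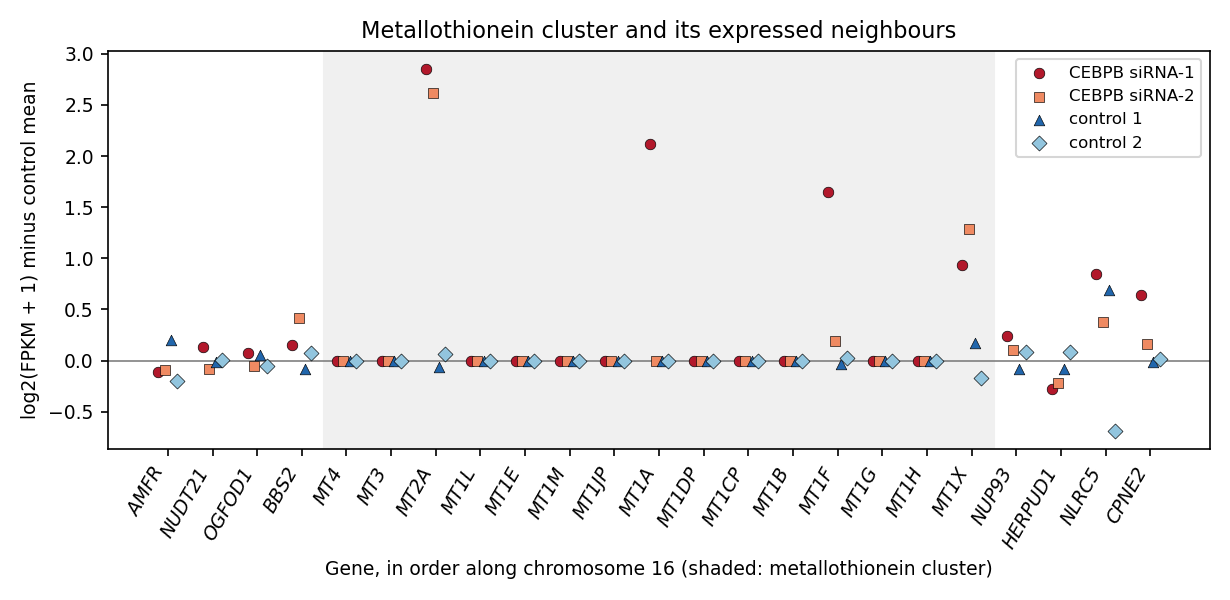
Difference of log2(FPKM + 1) from the control mean for the genes of the metallothionein cluster (shaded) and the 8 tested genes around it, in order along the chromosome, 1 point per library. In the siRNA-1 and siRNA-2 libraries MT2A stands at 2.85 and 2.62 and MT1X at 0.94 and 1.28. Among the neighbours NLRC5 lies at 0.85 and 0.38, with its controls at 0.69 and -0.69, and CPNE2 at 0.64 and 0.17. NUP93 lies at 0.24 and 0.10 and HERPUD1 at -0.28 and -0.22.

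Zinc enters the cytosol through the SLC39A importers and leaves it through the SLC30A exporters. Of 11 exporter genes listed, 5 were tested, SLC30A1 among them, and 0 rose and 0 fell in limma or in the authors' deposited table. Over all genes 0.235% were called by limma and 4.14% by the authors, in either direction, so 0 calls in so short a list is near that share. Of the 5, 1 had an unadjusted limma p below 0.05, where 12.2% of all tested genes did. SLC30A5, which loads zinc into the early secretory pathway, had the smallest p and was at 17.0 and 13.5 FPKM in the knockdown libraries, against 22.2 and 23.2 FPKM in the controls (limma log2 change -0.56 ± 0.19, adjusted p = 0.328). The median log2 change of the 5 was -0.07, which is the value of SLC30A1 itself, a gene chosen with these results known. SLC30A9, SLC30A7 and SLC30A6 were at -0.29, -0.02 and 0.14.

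Of 14 importer genes listed, 11 were tested, and 0 rose and 0 fell in limma or in the authors' deposited table. This too is near the share over all genes, 0.235% by limma and 4.14% by the authors in either direction. Of the 11, 2 had an unadjusted limma p below 0.05, beside the same 12.2% of all tested genes. SLC39A14, an importer of zinc, iron and manganese that inflammation is known to induce in liver, had the smallest p. It was at 54.3 and 54.7 FPKM in the knockdown libraries, against 38.1 and 37.0 FPKM in the controls (limma log2 change 0.53 ± 0.15, adjusted p = 0.267). Its groups did not overlap and the libraries of each group lay close together. The median of the 11 was 0.05. SLC39A8, a related importer, was at 4.94 and 9.74 FPKM in the knockdown libraries, against 12.4 and 15.4 FPKM in the controls (limma log2 change -0.89 ± 0.32, adjusted p = 0.355). Without the siRNA-2 library, which leaves 1 knockdown library, its log2 change was -1.32 and limma called it lower. Limma also called SLC39A8 lower with the siRNAs as separate groups. SLC39A1, another importer, lay above both controls, with 105 and 79.1 FPKM in the knockdown libraries, against 61.5 and 69.5 FPKM in the controls. Its limma log2 change was 0.48 ± 0.20 (adjusted p = 0.428), and 0.68 without the siRNA-2 library, where limma called it higher. SLC39A8 and SLC39A1 were named after their values were seen.

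Metallothioneins also bind copper, and 16 of 20 listed copper genes were tested. In limma 0 of the 16 passed (0.235% of all tested genes did) and 4 had an unadjusted p below 0.05 (12.2% of all tested genes did), while in the authors' deposited table CP and STEAP2 fell, where 1.42% of all genes were called lower, and 0 rose. CP encodes ceruloplasmin, the plasma carrier of copper. It was at 2.41 and 7.44 FPKM in the knockdown libraries, against 48.9 and 41.8 FPKM in the controls (limma adjusted p = 0.0926; authors' deposited log2 change -2.84). STEAP2, a metalloreductase of iron and copper, was at 5.79 and 12.04 FPKM in the knockdown libraries, against 25.8 and 18.7 FPKM in the controls (limma adjusted p = 0.253; authors' deposited log2 change -1.43). Both were lowest with siRNA-1. In limma CP was called lower without siRNA-1 (adjusted p = 0.0257), without siRNA-2 (adjusted p = 0.00539) and with the siRNAs as separate groups (adjusted p = 0.00620). STEAP2 was called lower without siRNA-2 (adjusted p = 0.0173) and with separate groups (adjusted p = 0.0290). The copper transporters ATP7A, ATP7B and SLC31A1 and the chaperones ATOX1, CCS and COX17 were among those that did not pass in either table. CCS and COX17 were, with CP and STEAP2, the 4 with an unadjusted p below 0.05. CCS was at 15.3 and 17.9 FPKM in the knockdown libraries, against 25.3 and 21.4 FPKM in the controls. COX17 was at 49.4 and 52.8 FPKM in the knockdown libraries, against 69.3 and 76.0 FPKM in the controls. The list's median log2 change was -0.10.

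Heat shock genes, which heavy metals can induce together with metallothioneins, were also followed, and all 15 listed were tested. In limma 0 of the 15 passed and 1 had an unadjusted p below 0.05, against 0.235% and 12.2% of all tested genes. In the authors' deposited table CRYAB fell and 0 rose, where 1.42% of all genes were called lower. CRYAB, a small heat shock protein gene, was listed at 0 in the siRNA-1 library and at 0.188 FPKM in the siRNA-2 library, against 6.43 and 0.609 FPKM in the controls, which differed widely from each other. The inducible HSP70 genes HSPA1A and HSPA1B, close paralogs that share reads, were at 101 and 89.8 FPKM and at 81.9 and 73.2 FPKM in the knockdown libraries, against 134 and 115 FPKM and 111 and 91.0 FPKM in the controls. HSPB1 (277 and 283 FPKM in the knockdown libraries, against 216 and 224 FPKM in the controls) and HSPB8 (13.8 and 6.55 against 5.32 and 4.50 FPKM) lay above both controls instead and did not pass in either table. Without the siRNA-2 library, limma called HSPB8 higher (adjusted p = 0.0223) and BAG3 lower (adjusted p = 0.0497). The list's median log2 change was -0.17.

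**Figure D5:**
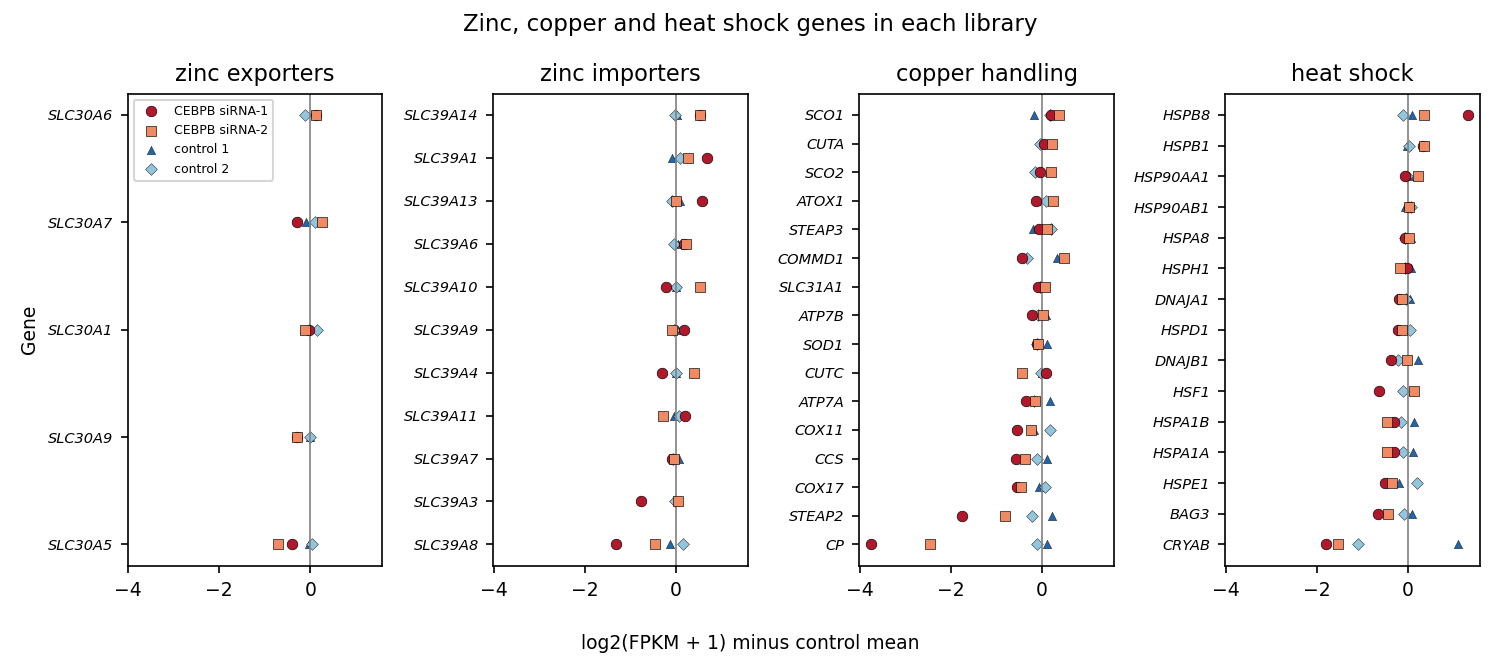
Difference of log2(FPKM + 1) from the control mean for tested zinc exporter, zinc importer, copper and heat shock genes, 1 point per library, ordered within each panel by log2 change. Most genes lie near 0 in all libraries. By log2 change, CP and STEAP2 are lowest among the copper genes. SLC39A14 is highest and SLC39A8 lowest among the zinc importers by log2 change. With siRNA-1 the point of SLC39A1 (0.68) lies above that of SLC39A14 (0.52).

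To place MT2A and SLC30A1 among other genes, the profiles nearest to theirs were sought over the 4 libraries among 9510 other genes averaging at least 5 FPKM. Likeness was the largest difference in any library between the profiles, each as log2(FPKM + 1) minus its own control mean. The profile nearest to MT2A was that of the class I antigen gene HLA-B, with a largest difference of 0.21. It was followed by the potassium channel gene KCNMA1 (0.24), the chemokine CCL2 (0.37), the pleckstrin family gene PLEK2 (0.63) and the calcium-binding protein gene EFHD2 (0.67). HLA-B has near-identical relatives with which it can share reads. The profiles nearest to SLC30A1 were those of CDKN3, CMC4 and TATDN3, with largest differences of 0.035 to 0.037. In all 3 the knockdown libraries lay between the controls, which choosing them by likeness to SLC30A1 makes nearly certain.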

How the data were processed

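RNA was measured in 4 libraries of strand-specific single-end reads. The submitters' processing notes name build hg19 and, without saying what each was used for, DESeq2 1.26.0, HTSeq 0.13.5, StringTie 2.1.4 and STAR 2.7.0d. The authors' per-library values were taken as FPKM, because the deposited gene columns are headed as StringTie heads them and the totals differ between libraries. Per the file headers the other deposited columns are the authors' DESeq2 results: mean normalized count (a signal per gene), log2 fold change with its standard error, Wald score, p-value and adjusted p-value. Counts per library were not used here; the authors' mean normalized count gives the depth behind each gene.

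Log2(FPKM + 1) was fitted in R 4.3.3 by limma 3.58.1, with its prior variance trended on intensity, over genes averaging 1 FPKM or more. P-values were adjusted by Benjamini-Hochberg and called under 0.05. This scale understates the change of low genes. Residual degrees of freedom were 2, with 3.61 added by the prior, and p-values measure only the spread between these libraries, which may be technical between the controls. An exact two-sided permutation test of 2 libraries against 2 cannot go below p = 0.333. Alternatives were another pseudocount, other filters, other scalings, each library left out, a replicate block and separate siRNA groups.

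Genes, lists and rules were chosen with earlier results of these data known. Named were the 9 genes; in each zinc, copper and heat shock list, those called in either table or otherwise the smallest limma p; the nearest expressed neighbours of the cluster; and the nearest profiles. Others, SLC39A1, SLC39A8, NLRC5, CPNE2, HSPA1A, HSPB8 and the copper transporters and chaperones among them, were named after their values were seen. Gene order came from GENCODE 29 (GRCh38), matched by gene ID. RefSeq promoter windows matched 4 of the 9 genes.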

Additional observations from a re-analysis of the deposited data

How the results depend on the processing

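With 2 libraries a group, calls depend on the spread between the controls. Genes called higher and lower by limma (9 and 24) ranged from 0 to 870 and from 0 to 894 when a library was left out. They were 0 and 0 with no filter on low values (2438 genes at an unadjusted p below 0.05), where genes at 0 in every library were still left out, and 538 and 433 with the siRNAs as separate groups. With the replicate block they were 11 and 14; same-numbered libraries deviated together at a correlation of 0.0754, so the numbers were not taken to pair them. Calls in the zinc, copper and heat shock lists, 0 in all, ranged from 0 to 6 with a library left out and were 3 with separate siRNA groups; those near the cluster ranged from 0 to 1. Calls between the siRNAs, 62 in all, were 1 with a pseudocount of 0.1, 1915 with no filter, 1293 with a minimum of 5 FPKM, 163 with median-of-ratios and 0 with upper-quartile scaling (3127 at an unadjusted p below 0.05). Leaving out a control there leaves no residual degrees of freedom and was not run. The log2 ratio of the metallothionein sum was 2.51, ranged from 2.40 to 2.61 with a library left out, and was 1.32 without MT2A. The cause of these shifts was not tested. Every alternative that tested them kept MT2A and MT1X higher in knockdown cells. The log2 change of MT1F, 0.92, dropped to 0.19 when the siRNA-1 library was left out, against 1.65 when that of siRNA-2 was, and came to 1.54 with a pseudocount of 0.1, so most of it rests on the siRNA-1 library. MTF1 changed sign without siRNA-1 (-0.08) and SLC30A1 without control 2 (0.07).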
